A study of Mus musculus with 10 samples.

Results

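The genes described here are 36 components of DNA replication and the cell cycle, chosen by name and read from the rows of the deposited table that carry those symbols, out of 16874 genes in all. All 36 were found. They comprise 17 genes of licensing and replication, 4 of G1 entry, 13 of G2 and mitosis and 2 inhibitors of cyclin-dependent kinases. Expression was read by RNA sequencing of liver in 10 libraries from male C57BL/6 mice of 20 to 30 g. In 5 libraries the mice had received DEHP, a phthalate plasticizer and peroxisome proliferator, by gavage at 2500 mg per kg of body weight. In the other 5 they had received 0.5% CMC by the same route. In both groups every mouse had Pparg, which encodes the nuclear receptor PPAR gamma, knocked out in the liver, so no difference below can be assigned to the knockout. The labels give 12 mice per group. The sources used here do not give the recombinase and promoter behind the knockout, the age of the mice or the length of treatment. The comparison of DEHP with CMC reads whether genes of proliferation differed after a peroxisome proliferator.

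Before DNA synthesis, the origin recognition complex, Cdc6 and Cdt1 load a ring of the Mcm2 to Mcm7 proteins onto chromatin, the step called licensing. Cdc45 and the GINS complex then join the ring to make the active helicase, PCNA clamps the polymerases to DNA, and ribonucleotide reductase, thymidylate synthase and thymidine kinase supply nucleotides. Cyclins D and E open the way into S phase, cyclins A and B with Cdk1 drive mitosis, and inhibitors such as p27 hold the kinases back. In the adult liver most hepatocytes rest outside the cycle, and peroxisome proliferators are known to cause rodent hepatocytes to enlarge and divide.

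Values are FPKM, fragments scaled by transcript length and by the mapped fragments of the library, and they summed to between 688410 and 747577 per DEHP library and between 696318 and 724127 per CMC library. Fold changes are differences of log2(FPKM + 0.5), DEHP minus CMC, which understate the change of low genes. They were tested with limma over the 11242 genes that reached 0.5 FPKM in at least 5 libraries, and a gene was called where its Benjamini-Hochberg adjusted p was under 0.05. No label names the mouse behind a library, so the p-values cover the spread between samples only, which may be technical. Low values of single-transcript genes fell close to whole multiples of 1 step, from 81.3% to 86.0% of them within 0.2 of a whole number. By that step each library held an estimated 7270000 to 7660000 fragments, so that 1 fragment was worth 0.046 FPKM for Mcm3 and 0.081 FPKM for Cdc20. Pparg itself averaged 7.51 ± 1.41 FPKM in DEHP libraries and 3.94 ± 1.43 FPKM in CMC libraries (SD, n = 5 each, limma adjusted p = 0.0118). A single value per gene does not show whether these reads came from intact or deleted Pparg. Whether the knockout was equally complete in both groups was not tested. In bulk liver, fewer cells of a type and less RNA per cell cannot be told apart.

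After DEHP, Mcm6, Cdc45 and Gins2 of the replicative helicase were called higher. Rrm2, a subunit of ribonucleotide reductase, was called lower. All of them are in the replication group, and no gene of G1 entry, of G2 and mitosis or of the inhibitors was called. With a component of circadian clock genes as a covariate, described below, 0 of the 3 higher calls held and Rrm2 kept its call. Gins2 was called in 5 of 20 alternative fits. Of the 36 genes, 29 passed the filter on low values, and 3 of these were called higher (10.3%) and 1 lower (3.45%). Among all tested genes, 9.12% were called higher and 2.4% lower, so the 29 genes as a whole were called about as often as other genes. In the replication group 3 of 16 tested genes were called higher (18.8%) and 1 lower (6.25%). The median log2 fold change was 0.25 over those 16 genes and -0.21 over the 8 tested genes of G2 and mitosis, beside 0.06 over all tested genes. The fold change was above 0 for 14 of the 16 replication genes and for 3 of the 8 mitotic genes, beside 59.5% of all tested genes. With median-of-ratios scaling it was above 0 for 13 and 2 of them, and with quantile normalization for 12 and 2, with replication medians of 0.19 and 0.18. Every DEHP library lay above every CMC library for Mcm6 only, and below every CMC library for Rrm2 only. Of all tested genes, 8.56% were separated upward and 2.14% downward in this way.

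**Figure D1:**
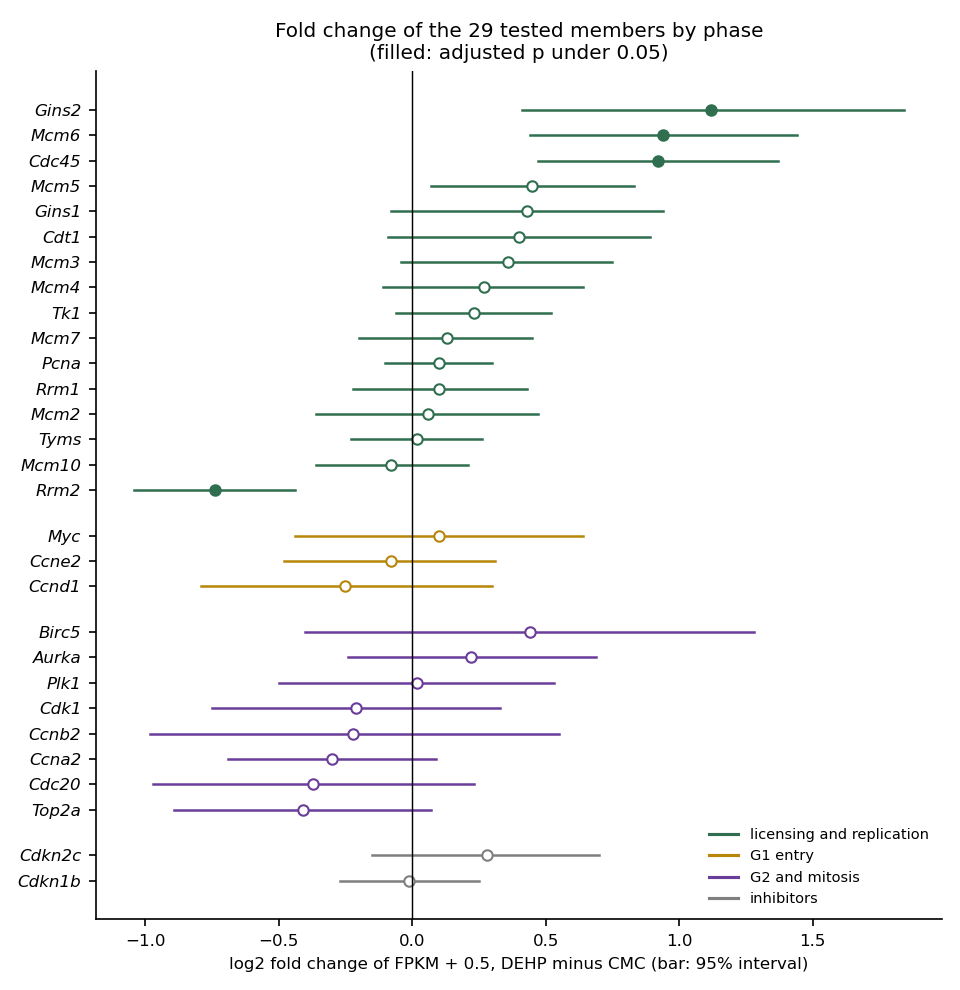
Log2 fold change of FPKM + 0.5, DEHP minus CMC, for the 29 tested genes grouped by phase, with bars for the 95% interval of limma and filled points for an adjusted p under 0.05. Gins2, Mcm6 and Cdc45 lie at 1.12, 0.94 and 0.92, Rrm2 at -0.74, and every interval of the mitotic genes spans 0.

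The promoters of 4 of these genes are shown because such windows hold motifs known from replication and mitotic genes. Of the 36 genes, 28 matched an entry in the RefSeq promoter table of GRCm38.p6, with 30 promoters of 300 bases, 250 before the start and 50 after it. Each is written 5′ to 3′ on the strand of its gene, and capitals mark every motif found on either strand. The motifs searched were TTTCCCGC and TTTGGCGC, of the kind E2F factors bind, TTTGAA, the CHR element of mitotic genes, CCAAT, the element NF-Y binds, and CACGTG, an E-box. No marked motifs overlapped in these 4 windows. The Mcm6 window lies at chr1:128359656-128359955 on the minus strand and holds TTTGGCGC in 2 places and CCAAT in 2. The Cdc45 window lies at chr16:18811923-18812222 on the minus strand and holds TTTGAA in 2 places and CCAAT in 2. The Rrm2 window lies at chr12:24708004-24708303 on the plus strand and holds CCAAT in 1 place. The Cdk1 window, for the kinase of mitotic entry, lies at chr10:69352863-69353162 on the minus strand and holds TTTGAA in 2 places and CCAAT in 3.
Mcm6: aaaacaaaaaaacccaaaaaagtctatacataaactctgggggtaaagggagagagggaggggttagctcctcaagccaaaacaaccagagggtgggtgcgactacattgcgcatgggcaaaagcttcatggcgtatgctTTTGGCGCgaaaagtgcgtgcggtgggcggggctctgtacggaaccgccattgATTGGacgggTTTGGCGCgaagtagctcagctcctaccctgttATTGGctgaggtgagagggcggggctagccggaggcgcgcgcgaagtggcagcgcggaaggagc
Cdc45: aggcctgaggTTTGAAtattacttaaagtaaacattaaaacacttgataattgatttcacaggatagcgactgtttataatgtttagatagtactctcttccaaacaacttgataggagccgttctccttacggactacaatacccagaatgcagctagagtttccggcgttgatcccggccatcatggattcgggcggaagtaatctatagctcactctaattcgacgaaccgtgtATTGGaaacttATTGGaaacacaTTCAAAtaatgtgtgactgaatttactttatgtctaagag
Rrm2: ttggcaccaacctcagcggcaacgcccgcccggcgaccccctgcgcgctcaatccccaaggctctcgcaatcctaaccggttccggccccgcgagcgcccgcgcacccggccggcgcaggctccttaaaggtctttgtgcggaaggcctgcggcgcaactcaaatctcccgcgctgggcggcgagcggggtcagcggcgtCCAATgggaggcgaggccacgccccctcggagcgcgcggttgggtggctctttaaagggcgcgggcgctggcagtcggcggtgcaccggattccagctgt
Cdk1: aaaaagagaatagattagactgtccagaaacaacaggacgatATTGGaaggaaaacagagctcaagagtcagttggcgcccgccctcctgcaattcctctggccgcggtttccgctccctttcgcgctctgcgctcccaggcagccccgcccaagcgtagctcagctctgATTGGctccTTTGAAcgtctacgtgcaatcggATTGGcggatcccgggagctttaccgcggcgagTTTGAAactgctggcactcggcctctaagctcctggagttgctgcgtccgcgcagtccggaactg

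Only 2 exact E2F-type sequences were searched, so close variants were not counted, such as TTTCGCGC, which is in the Cdk1 window and unmarked. TTTCCCGC or TTTGGCGC lay in the promoters of 6 of 14 replication genes with an entry, and of 0 of 11 mitotic genes. The 6 were Mcm3, Mcm5, Mcm6, Mcm7, Cdc6 and Cdt1. Over the 30 promoters the share was 20.0%, against 1.56% of all 32851 promoters of this length. The CHR element lay in 2 of 14 replication genes, Mcm2 and Cdc45, and in 8 of 11 mitotic genes, 33.3% of the 30 promoters against 17.9% of all. CCAAT lay in 10 of 14 replication genes and 10 of 11 mitotic genes, 76.7% against 37.4% of all. The E-box lay in Tyms and Cdkn2c, 6.67% against 7.15% of all. Of the called genes, Mcm6 held TTTGGCGC and Cdc45 and Rrm2 held neither E2F-type sequence searched, and the promoter of Gins2 was not analysed here. A motif match describes these letters only.

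Among the helicase genes, Mcm6, a subunit of the licensing ring, rose after DEHP. Mcm6 (gene ID 17219, chromosome 1, 128331575 to 128359705) had 2.87, 2.81, 3.43, 2.53 and 2.83 FPKM in DEHP libraries 1 to 5, against 0.55, 2.16, 1.36, 2.02 and 0.81 FPKM in CMC libraries 1 to 5. All 5 DEHP libraries lay above all 5 CMC libraries, and the CMC libraries were spread more widely. Its level averaged 2.89 ± 0.329 FPKM in DEHP libraries and 1.38 ± 0.713 FPKM in CMC libraries (SD, n = 5 each), a log2 fold change of 0.94 (SE 0.23, limma adjusted p = 0.0174). The call held when any 1 library was left out, with adjusted p between 0.00655 and 0.0489.

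Cdc45, which joins the ring at the start of synthesis, rose as well. Cdc45 (gene ID 12544, chromosome 16, 18780447 to 18811972) had 0.67, 1.76, 1.98, 1.32 and 1.6 FPKM in DEHP libraries 1 to 5, against 0.26, 0.51, 0.64, 0.51 and 0.67 FPKM in CMC libraries 1 to 5. Only DEHP library 1 fell within the CMC range, level with CMC library 5. The mean was 1.47 ± 0.506 FPKM in DEHP libraries and 0.518 ± 0.162 FPKM in CMC libraries, with a log2 fold change of 0.92 (SE 0.21, limma adjusted p = 0.0112), and leaving out any 1 library kept the adjusted p between 0.0026 and 0.0357. On the other strand, Ufd1 shares 209 of the 3506 exon bases of Cdc45, and it had 17.4 FPKM over all libraries.

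Gins2, a subunit of the GINS complex, also passed the test, and its call depended on single libraries. Gins2 (gene ID 272551, chromosome 8, 120581266 to 120589075) had 0.88, 1.42, 1.61, 2.22 and 2.14 FPKM in DEHP libraries 1 to 5, against 0, 0.44, 1.30, 0.99 and 0.15 FPKM in CMC libraries 1 to 5. DEHP library 1 lay within the CMC range and the other 4 DEHP libraries lay above it. The mean was 1.65 ± 0.551 FPKM in DEHP libraries and 0.576 ± 0.554 FPKM in CMC libraries, and the log2 fold change was 1.12 (SE 0.33, limma adjusted p = 0.0451). The call was lost without CMC library 1, 2 or 5 or without DEHP library 2, 3, 4 or 5, with adjusted p between 0.0693 and 0.0993. Of the 4097 exon bases of Gins2, 2758 are shared with Gse1 on the opposite strand, which had 3.62 FPKM. Whether counting used strand is not stated, so reads of Gins2 and Gse1 cannot be told apart over these bases.

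Circadian clock genes varied between libraries, and these calls were also fitted with a component of that variation as a covariate. A component of 18 clock genes scored 1.25, 3.44, -1.12, 1.29 and 3.53 in DEHP libraries 1 to 5 and -3.91, -2.91, -4.78, 0.64 and 2.58 in CMC libraries 1 to 5. CMC libraries 1, 2 and 3 thus scored below every other library. The component is the main axis along which these genes varied, and some of them rise along it while others may fall. Its sign was set so that the DEHP mean was the higher, so a low score does not mean lower clock genes. Of the 18 genes 0 were called, beside 9.12% higher and 2.4% lower of all tested genes, and 9 had fold changes above 0. With this component in the fit, the log2 fold changes were 0.97 for Mcm6, 0.84 for Cdc45 and 1.19 for Gins2, close to those without it, and the SEs were larger, at 0.30, 0.27 and 0.43. The limma adjusted p-values were then 0.0737, 0.0853 and 0.134, so none of these 3 calls held, while Rrm2 kept its call (log2 fold change -0.81, adjusted p = 0.0169).

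None of the other licensing genes was called, although most had fold changes above 0. Mcm5, a ring subunit, had 0.82, 1.04, 1.36, 0.58 and 1.04 FPKM in DEHP libraries 1 to 5, against 0.40, 0.58, 0.60, 0.75 and 0.49 FPKM in CMC libraries 1 to 5. In 4 of 5 DEHP libraries it exceeded the CMC maximum, and its log2 fold change was 0.45 (SE 0.18, limma adjusted p = 0.129). For Mcm3 the log2 fold change was 0.36 (adjusted p = 0.249), from 22 to 42 estimated fragments per DEHP library and 16 to 30 per CMC library. Mcm4 stood at 0.27 (adjusted p = 0.373), with 19 to 38 estimated fragments per DEHP library and 14 to 26 per CMC library. The ring subunits Mcm7 and Mcm2 had log2 fold changes of 0.13 (adjusted p = 0.663) and 0.06 (adjusted p = 0.899). Mcm7, at 6.88 ± 1.49 FPKM in DEHP libraries and 6.2 ± 0.896 FPKM in CMC libraries (SD, n = 5 each), was the most abundant of the ring. It overlaps Cops6, at 118 FPKM, and Ap4m1 on the other strand.

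Summed over Mcm2 to Mcm7, the level was 15.3, 12.5, 18.0, 11.4 and 14.5 FPKM in DEHP libraries 1 to 5, against 9.24, 11.3, 12.1, 13.2 and 8.87 FPKM in CMC libraries 1 to 5. DEHP library 3 was the highest, and the groups overlapped. The sum averaged 14.3 ± 2.54 FPKM in DEHP libraries and 10.9 ± 1.85 FPKM in CMC libraries (SD, n = 5 each). Thus a rise that passed the test was seen for Mcm6 and for none of the other 5 ring subunits. Whether Mcm6 differed from the other subunits in its response was not tested.

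Gins1, the partner of Gins2 in the same complex, had 2.39 to 6.75 FPKM in DEHP libraries and 2.25 to 5.15 FPKM in CMC libraries (log2 fold change 0.43, SE 0.24, limma adjusted p = 0.286). Cdt1, the loader of the ring, had 1.22 to 2.18 FPKM in DEHP libraries and 0.49 to 1.98 FPKM in CMC libraries (log2 fold change 0.40, SE 0.23, limma adjusted p = 0.298). Both groups overlapped for each gene. Cdc6, the other loader, stayed at or under 0.06 FPKM in DEHP libraries and at or under 0.09 FPKM in CMC libraries. It was listed at 0 in 3 libraries of each group and was not tested in the fit (two-sided exact permutation p = 1.0, unadjusted). Mcm10, a scaffold that helps the helicase start, averaged 25.6 ± 2.54 FPKM in DEHP libraries and 27.5 ± 6.43 FPKM in CMC libraries (SD, n = 5 each). Its log2 fold change was -0.08 (limma adjusted p = 0.782). On the per-length FPKM scale Mcm10 stood above 79.8% of tested genes, whereas Mcm2 stood above 9.48% of them, and the Mcm10 row pools 3 transcripts.

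Pcna, the sliding clamp, was abundant and did not pass the test. It had 26.5, 23.3, 27.7, 26.8 and 25.9 FPKM in DEHP libraries 1 to 5, against 25.8, 24.5, 19.8, 25.3 and 26.4 FPKM in CMC libraries 1 to 5. CMC library 3 was the lowest, and the other libraries of both groups lay close together. The log2 fold change was 0.10, with a 95% interval from -0.10 to 0.30 (limma adjusted p = 0.54).

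**Figure D2:**
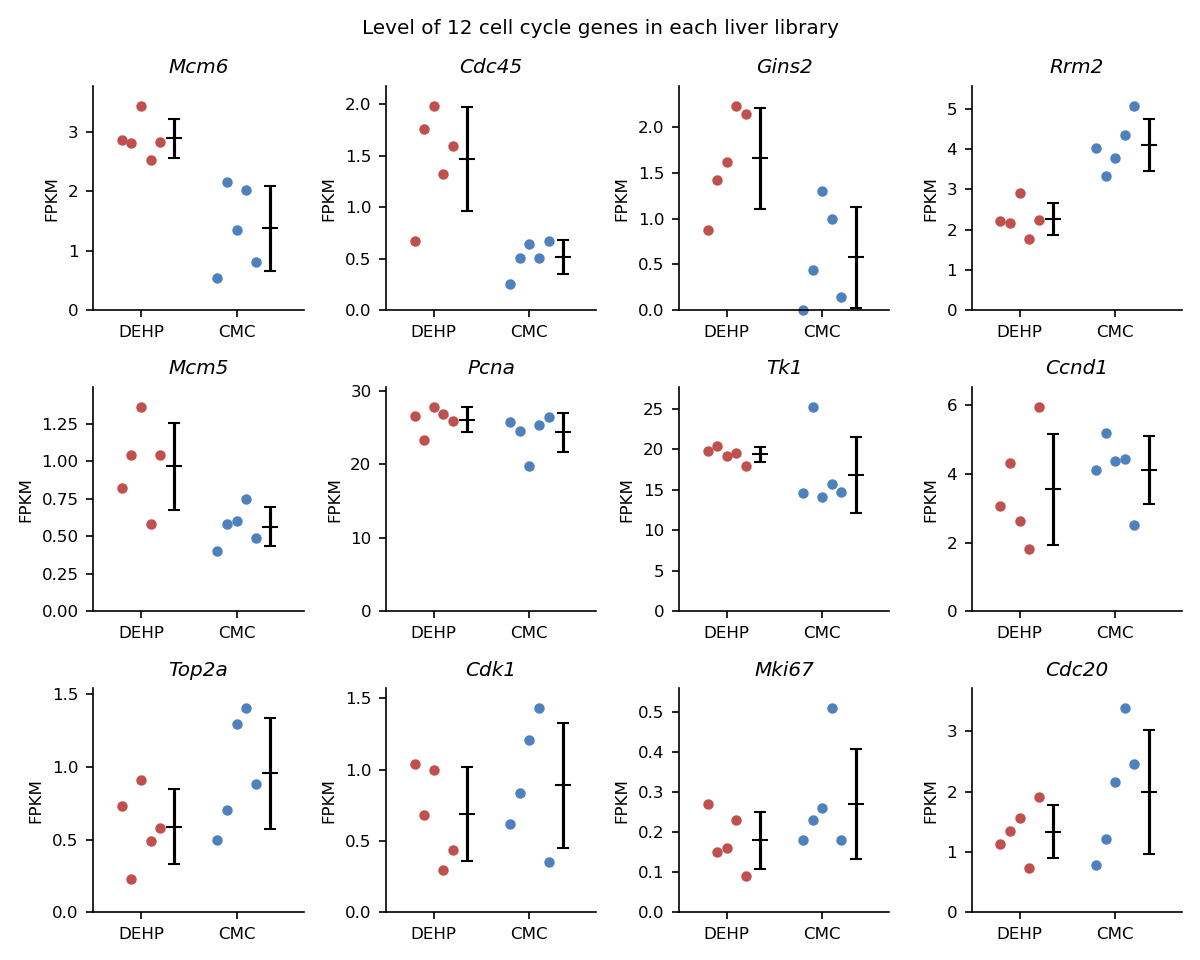
FPKM of 12 of the genes in each library, chosen after their values were seen, with DEHP left of CMC in each panel, points for libraries 1 to 5 in order, and mean with SD beside them. Mcm6 and Rrm2 separate the groups, Cdc45 and Gins2 overlap in DEHP library 1, and Top2a, Cdk1, Mki67 and Cdc20 overlap in part. The DEHP libraries below every CMC library number 3 for Mki67, 2 for Top2a and 1 each for Cdk1 and Cdc20.

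Of the genes that supply nucleotides, Rrm2 fell and the other 3 did not pass the test. Rrm2, the regulatory subunit of ribonucleotide reductase that is made in S phase (gene ID 20135, chromosome 12, 24708254 to 24714146), had 2.23, 2.18, 2.90, 1.78 and 2.24 FPKM in DEHP libraries 1 to 5, against 4.03, 3.34, 3.79, 4.35 and 5.06 FPKM in CMC libraries 1 to 5. Every DEHP library lay below every CMC library. The mean was 2.27 ± 0.402 FPKM in DEHP libraries and 4.11 ± 0.645 FPKM in CMC libraries (SD, n = 5 each), a log2 fold change of -0.74 (SE 0.14, limma adjusted p = 0.00366). Rrm2 kept its call in all 21 alternatives, with adjusted p between 0.00265 and 0.0169. Rrm1, the large subunit of the same enzyme, had 1.54 to 2.08 FPKM in DEHP libraries and 1.18 to 2.16 FPKM in CMC libraries. Its log2 fold change was 0.10 (SE 0.15, limma adjusted p = 0.736).

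Tyms, thymidylate synthase, had 5.04 to 5.58 FPKM in DEHP libraries and 4.28 to 6.08 FPKM in CMC libraries, with a log2 fold change of 0.02 and a 95% interval from -0.23 to 0.26 (limma adjusted p = 0.955). Tk1, the thymidine kinase of dividing cells, had 19.7, 20.5, 19.2, 19.6 and 18.0 FPKM in DEHP libraries 1 to 5, against 14.6, 25.2, 14.1, 15.7 and 14.8 FPKM in CMC libraries 1 to 5. The DEHP libraries lay above 4 of the CMC libraries and below CMC library 2. Its log2 fold change was 0.23 (SE 0.14, limma adjusted p = 0.321), and without CMC library 2 it was 0.38 (adjusted p = 0.00963), so that 1 library decided whether Tk1 was called. Tk1 shares 83 exon bases with Afmid on the opposite strand, a gene at 64.8 FPKM.

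None of the 4 genes of G1 entry was called. Ccnd1, cyclin D1, which carries growth signals into the cycle, had 3.06, 4.33, 2.64, 1.82 and 5.94 FPKM in DEHP libraries 1 to 5, against 4.12, 5.19, 4.37, 4.43 and 2.51 FPKM in CMC libraries 1 to 5. DEHP libraries held both the highest and the lowest value. The log2 fold change was -0.25 (SE 0.25, limma adjusted p = 0.599), and its 95% interval ran from -0.79 to 0.30. On the opposite strand, LTO1 shares 1100 of the 4709 exon bases of Ccnd1. Myc, a transcription factor of growth, had 0.70 to 2.63 FPKM in DEHP libraries and 0.96 to 1.78 FPKM in CMC libraries (log2 fold change 0.10, adjusted p = 0.863). The E cyclins that start S phase were low. Ccne2 had 0.23 to 0.55 FPKM in DEHP libraries and 0.27 to 0.63 FPKM in CMC libraries (log2 fold change -0.08, adjusted p = 0.838). It shares 609 of its 3495 exon bases with Ints8 on the opposite strand, at 2.97 FPKM. Ccne1 had 0.07 to 0.77 FPKM in DEHP libraries and 0.14 to 0.43 FPKM in CMC libraries and did not pass the filter (two-sided exact permutation p = 0.587, unadjusted).

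No gene of G2 and mitosis was called in either direction, and 5 of the 13 did not pass the filter on low values. The 8 tested genes had adjusted p between 0.276 and 0.981. With 9.12% called higher and 2.4% lower over all tested genes, 0 calls among 8 does not show a lack of response. The mean was lower in DEHP libraries than in CMC libraries for 9 of the 13 genes, a count with no test. Cdk1, the kinase of mitotic entry, had 1.04, 0.68, 1.00, 0.30 and 0.44 FPKM in DEHP libraries 1 to 5, against 0.62, 0.84, 1.21, 1.43 and 0.35 FPKM in CMC libraries 1 to 5. The groups overlapped over most of their range. Its log2 fold change was -0.21, with a 95% interval from -0.75 to 0.33 (limma adjusted p = 0.667). Among its cyclin partners, Ccna2 had 0.69 to 1.11 FPKM in DEHP libraries and 0.64 to 1.69 FPKM in CMC libraries (log2 fold change -0.30, adjusted p = 0.33). Exosc9 on the opposite strand, at 7.03 FPKM, shares 510 of the 4083 exon bases of Ccna2. Ccnb2 had 0.19 to 1.31 FPKM in DEHP libraries and 0.19 to 1.85 FPKM in CMC libraries (log2 fold change -0.22, adjusted p = 0.763), which corresponds to an estimated 2 to 14 fragments per DEHP library and 2 to 20 per CMC library. Ccnb1 had 0.18 to 0.75 FPKM in DEHP libraries and 0.18 to 1.25 FPKM in CMC libraries, below the filter (two-sided exact permutation p = 0.381, unadjusted).

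Top2a, the topoisomerase that untangles sister chromosomes, had the lowest adjusted p of the mitotic genes. It had 0.73, 0.23, 0.91, 0.49 and 0.58 FPKM in DEHP libraries 1 to 5, against 0.50, 0.70, 1.29, 1.4 and 0.88 FPKM in CMC libraries 1 to 5. DEHP libraries 2 and 4 lay below every CMC library. The log2 fold change was -0.41, with a 95% interval from -0.89 to 0.07 (SE 0.22, limma adjusted p = 0.276). Mki67, the gene of the proliferation antigen Ki-67, had 0.27, 0.15, 0.16, 0.23 and 0.09 FPKM in DEHP libraries 1 to 5, against 0.18, 0.23, 0.26, 0.51 and 0.18 FPKM in CMC libraries 1 to 5. DEHP libraries 2, 3 and 5 lay below every CMC library. Mki67 lay under the filter, and an exact permutation test gave p = 0.206 (two-sided, unadjusted). Fitted with no filter, its log2 fold change was -0.17 (limma adjusted p = 0.531).

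Of the kinases and regulators of mitosis, Cdc20, the activator of the anaphase-promoting complex, had 0.74 to 1.91 FPKM in DEHP libraries and 0.78 to 3.38 FPKM in CMC libraries. Its log2 fold change was -0.37, with a 95% interval from -0.97 to 0.23 (limma adjusted p = 0.45). Elovl1 on the opposite strand, at 26.3 FPKM, shares 53 of the 1868 exon bases of Cdc20. Plk1, a kinase of the spindle poles, had 0.13 to 1.05 FPKM in DEHP libraries and 0.25 to 0.69 FPKM in CMC libraries (log2 fold change 0.02, adjusted p = 0.981). Aurka, another spindle kinase, had 0.46, 1.65, 1.85, 1.16 and 1.5 FPKM in DEHP libraries 1 to 5 and 0.85 to 1.1 FPKM in CMC libraries. DEHP library 1 lay below every CMC library and the other 4 above (log2 fold change 0.22, SE 0.22, limma adjusted p = 0.579). Birc5, the survivin of the chromosomal passenger complex, had 2.76, 2.95, 0.81, 2.87 and 3.19 FPKM in DEHP libraries 1 to 5, against 0.55, 3.94, 2.09, 1.30 and 1.32 FPKM in CMC libraries 1 to 5. Its log2 fold change of 0.44 had the widest interval of the tested genes, from -0.40 to 1.28 (adjusted p = 0.524). For the other 7 tested mitotic genes the upper bound of the 95% interval lay between 0.07, for Top2a, and 0.69, for Aurka.

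Aurkb, the kinase of the same passenger complex, had 0.07 to 0.50 FPKM in DEHP libraries and 0.07 to 0.85 FPKM in CMC libraries (two-sided exact permutation p = 0.397, unadjusted). The spindle checkpoint kinase Bub1 had at most 0.10 FPKM in a DEHP library and at most 0.16 FPKM in a CMC library, and was listed at 0 in 2 DEHP and 3 CMC libraries (exact permutation p = 0.921). Its relative Bub1b had 0 to 6 estimated fragments per DEHP library and 0 to 12 per CMC library (exact permutation p = 0.508). The smallest p that 5 libraries against 5 allow in this test is 0.00794.

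Summed over the 13 mitotic genes, the level was 8.79, 9.94, 9.47, 8.96 and 11.2 FPKM in DEHP libraries 1 to 5, against 6.07, 12.1, 12.2, 15.6 and 9.35 FPKM in CMC libraries 1 to 5. The 5 DEHP libraries lay within the CMC range. CMC library 4 alone held the highest value for 7 of the 13 genes. Over all 17 replication genes, the sum was 105, 102, 110.0, 103 and 101 FPKM in DEHP libraries 1 to 5, against 92.4, 103.5, 85.8, 109.7 and 90.5 FPKM in CMC libraries 1 to 5. The groups overlapped, with CMC libraries 2 and 4 above 3 and 4 of the DEHP libraries. Over 14 replication genes, leaving out the abundant Mcm10, Pcna and Tk1, the sum was 30.5, 30.9, 39.9, 30.2 and 34.7 FPKM in DEHP libraries 1 to 5, against 23.4, 28.0, 29.2, 30.7 and 27.2 FPKM in CMC libraries 1 to 5. CMC library 4 lay above the lowest DEHP libraries, and the other CMC libraries lay below all of DEHP. DEHP library 3 held the highest value for 7 of the 17 replication genes and CMC library 1 alone the lowest for 6.

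**Figure D3:**
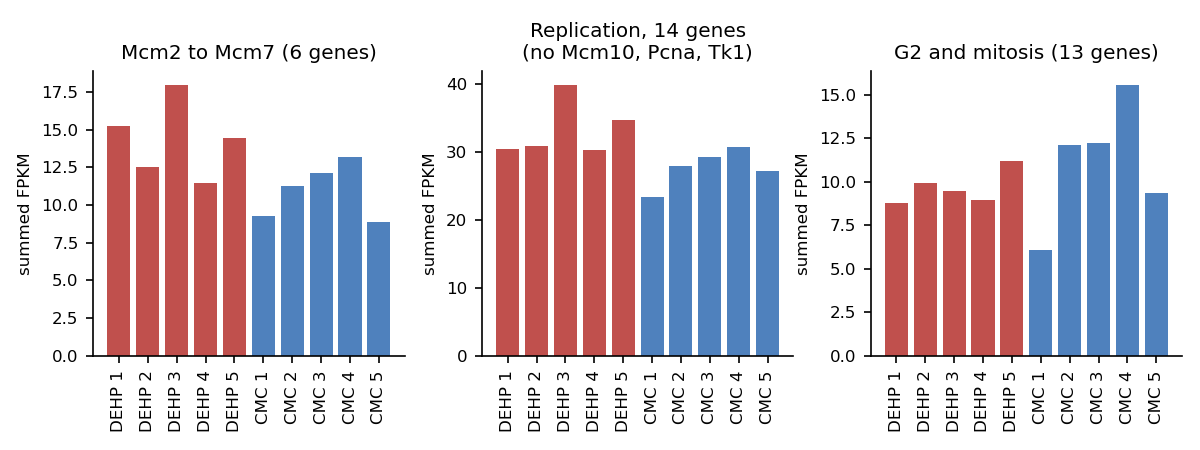
Summed FPKM per library for Mcm2 to Mcm7, for 14 replication genes without Mcm10, Pcna and Tk1, and for the 13 genes of G2 and mitosis, with 1 bar per library and DEHP left of CMC. The mitotic sums of the DEHP libraries, 8.79 to 11.2 FPKM, lie within the CMC range of 6.07 to 15.6 FPKM. The sum over all 17 replication genes is not drawn, and there the groups overlap, at 101.3 to 110.0 FPKM in DEHP libraries and 85.8 to 109.7 FPKM in CMC libraries.

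Neither inhibitor was called. Cdkn1b, the gene of p27, had 5.93, 6.87, 6.66, 7.29 and 5.51 FPKM in DEHP libraries 1 to 5, against 5.69, 6.64, 5.68, 6.43 and 8.19 FPKM in CMC libraries 1 to 5. The ranges largely coincided, and the log2 fold change was -0.01 with a 95% interval from -0.27 to 0.25 (limma adjusted p = 0.975). Cdkn2c, the gene of p18, an inhibitor of the cyclin D kinases, had 3.91, 3.05, 4.76, 6.80 and 6.28 FPKM in DEHP libraries 1 to 5, against 3.72, 3.19, 5.46, 3.30 and 3.93 FPKM in CMC libraries 1 to 5. DEHP libraries 4 and 5 lay above every CMC library and DEHP library 2 below (log2 fold change 0.28, SE 0.20, limma adjusted p = 0.421).

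Other genes of the same pathways were read from lists chosen by name. Like the 36 genes, these lists were chosen with earlier results of these data known, so their counts are not an independent check. Of 47 other replication genes, 46 were in the table and 36 were tested. Of these, 7 were called higher (19.4%) and 0 lower, with 31 of 36 fold changes above 0 and a median of 0.28, beside 9.12% higher, 2.4% lower and a median of 0.06 over all tested genes. With median-of-ratios scaling 6 were called and 28 were above 0, and with quantile normalization 5 were called and 29 were above 0. The 7 were Gins4, Pold2, Rfc2, Rfc3, Rpa1, Rpa2 and Dut. Pold2, a subunit of polymerase delta, had 15.4, 12.7, 16.5, 12.4 and 13.4 FPKM in DEHP libraries 1 to 5, against 7.53, 6.95, 6.82, 7.56 and 7.80 FPKM in CMC libraries 1 to 5. Every DEHP library lay above every CMC library (log2 fold change 0.89, SE 0.10, limma adjusted p = 8.3e-05). Rpa2, of the single-strand binding protein, averaged 4.91 ± 0.580 FPKM in DEHP libraries and 2.61 ± 0.339 FPKM in CMC libraries (adjusted p = 0.000839). Dut, which removes dUTP, had a log2 fold change of 0.71 (adjusted p = 0.00594), the clamp loader subunit Rfc3 0.69 (adjusted p = 0.00786), and Rpa1 0.48 (adjusted p = 0.00951). For Gins4, a subunit of the GINS complex, the fold change was 0.37 on the log2 scale (adjusted p = 0.0467), and it was called in 5 of 21 alternatives. Leaving out any library but CMC library 2 ended its call, with adjusted p between 0.0516 and 0.104. With the clock component as a covariate, 4 of the 7 were still called, namely Dut, Pold2, Rfc2 and Rpa2. Without CMC library 2 and DEHP library 5 the count was 6.

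Among 60 other genes of G2 and mitosis in the table, 24 were under 0.5 FPKM in every library and 22 were tested. Of the tested, 1 was called higher (4.55%) and 0 lower, and their median log2 fold change was 0.06. Over all tested genes, 9.12% were called higher and 2.4% lower. In this list and those below, of 20 to 22 tested genes each, 0 or 1 call does not show a lack of response. The called gene was Cenpm, a centromere protein, with 8.65, 5.60, 6.52, 6.06 and 8.53 FPKM in DEHP libraries 1 to 5, against 2.63, 1.75, 1.37, 4.71 and 3.91 FPKM in CMC libraries 1 to 5. The groups did not overlap (log2 fold change 1.25, SE 0.26, limma adjusted p = 0.00705). Cenpm kept its call in 20 of 21 alternatives and lost it with the clock component as a covariate (log2 fold change 0.83, adjusted p = 0.0666). Next by p were the checkpoint gene Mad2l1 (log2 fold change 0.60, adjusted p = 0.0817), the kinetochore gene Spc24 (0.64, adjusted p = 0.139), the ubiquitin conjugase Ube2c (-0.75, adjusted p = 0.145) and the passenger protein gene Incenp (-0.43, adjusted p = 0.174). None of these 4 was called, although Ube2c was called lower with the clock component as a covariate (-1.24, adjusted p = 0.0287). Of 20 tested other G1/S cyclins, kinases and E2F genes 0 were called, with a median of 0.12. The first by p were the transcription factors E2f3 (0.55, adjusted p = 0.119) and Tfdp1 (0.32, adjusted p = 0.144), then Lin54 (adjusted p = 0.234), Ccnd3 (adjusted p = 0.247) and E2f1 (adjusted p = 0.275). Of 21 tested other inhibitors and checkpoint genes 0 were called, with a median of 0.11. The first were Wee1, the kinase that restrains Cdk1 (0.67, adjusted p = 0.0674), Ccng1 (0.30, adjusted p = 0.116), Cdkn1c (0.61, adjusted p = 0.15), Cables1 (0.34, adjusted p = 0.291) and Gadd45g (0.85, adjusted p = 0.319).

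**Figure D4:**
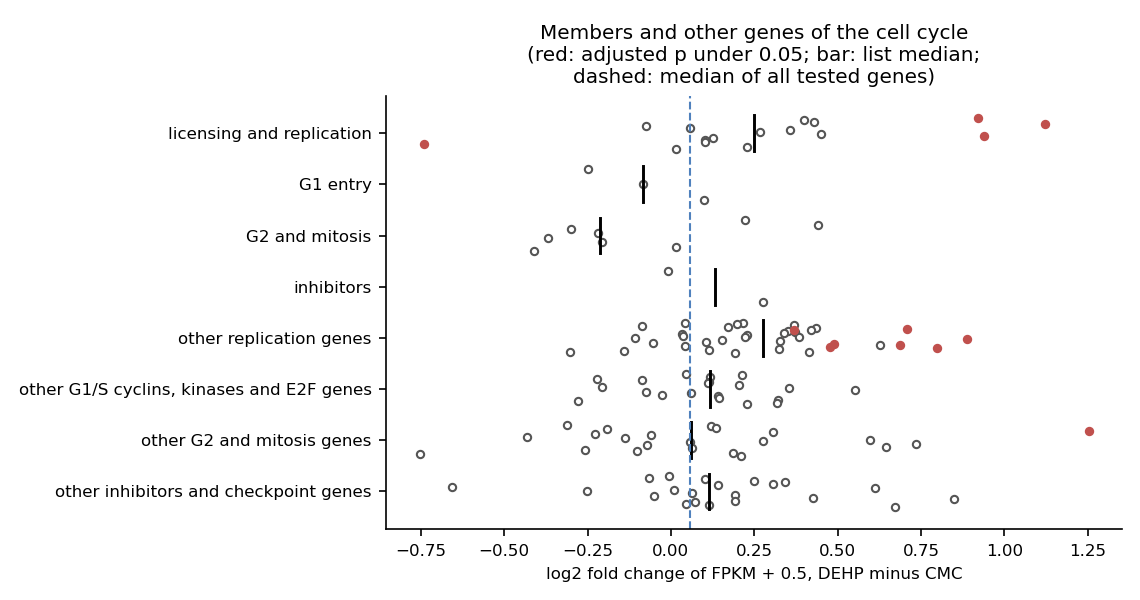
Log2 fold change of FPKM + 0.5, DEHP minus CMC, for the tested genes of the 4 phases and of 4 lists of other genes, with 1 point per gene, red for an adjusted p under 0.05, a bar for the list's median and a dashed line for the median of all tested genes, 0.06. The replication medians are 0.25 and 0.28 and the mitotic medians -0.21 and 0.06.

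Markers of liver cell types that could hold cycling cells were read beside these values. Markers of hepatocytes summed to between 52980 and 59950 FPKM in DEHP libraries and between 70580 and 84510 FPKM in CMC libraries. Of the 10, 6 were called lower (Alb, Apoa1, Ttr, Apoc3, Fgb and Serpina1c) and Cyp2e1 higher, beside 2.4% lower and 9.12% higher over all tested genes. Cps1, Hnf4a and Tat were not called (limma adjusted p = 0.443, 0.0923 and 0.954). Alb weighed most in the sum, with means of 21280 FPKM in DEHP libraries and 33190 FPKM in CMC libraries. Of 10 macrophage and Kupffer cell markers 0 were called, with sums of 187 to 231 FPKM in DEHP libraries and 152 to 217 FPKM in CMC libraries. Markers of T and NK cells summed to 2.20 to 6.17 FPKM in DEHP libraries and 2.47 to 4.46 FPKM in CMC libraries, and those of B and plasma cells to 1.19 to 5.02 FPKM in DEHP libraries and 1.98 to 4.01 FPKM in CMC libraries. Of their 5 tested markers 0 were called. Neutrophil markers summed to 3.88 to 18.3 FPKM in DEHP libraries and 6.75 to 16.9 FPKM in CMC libraries, with Camp at 0 in every library. Endothelial markers summed to 76.7 to 109 FPKM in DEHP libraries and 79.1 to 104 FPKM in CMC libraries, stellate markers to 43.0 to 67.5 FPKM in DEHP libraries and 57.2 to 73.5 FPKM in CMC libraries, and cholangiocyte markers to 17.6 to 28.9 FPKM in DEHP libraries and 20.8 to 28.9 FPKM in CMC libraries. None of the 8 endothelial, 8 stellate and 3 tested cholangiocyte markers was called. Erythroid markers summed to 1064 to 1727 FPKM in DEHP libraries and 1229 to 2436 FPKM in CMC libraries, with Alas2 lower and 0 higher among 6 tested. The part of any of these cell types in the differences of Mcm6, Cdc45, Gins2 and Rrm2 was not tested.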

How the data were processed

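Liver RNA of 5 DEHP and 5 CMC libraries was measured. The authors deposited 1 FPKM value per gene and library, and per the file headers FPKM is the unit. The submitters' processing notes name Cuffdiff, mm10 and GRCm38, while the aligner and the counting strand are not stated there. As FPKM depends on the total of a library, changes in very abundant transcripts shift every other value. Genes that reached 0.5 FPKM in 5 or more of the 10 libraries were tested as log2(FPKM + 0.5) with limma 3.58.1 in R 4.3.3 (intensity trend, robust variance). P-values were adjusted by Benjamini and Hochberg's method over all 11242. Genes under the filter were given an exact permutation test.

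Coordinates and promoters are RefSeq's for GRCm38.p6, to which 16833 of 16874 gene IDs matched. Fragment numbers were estimated from the step of low FPKM values times transcript length less a fixed offset. Of 16 single-transcript genes with a known length, they are given for 6. In these, at least 8 of 10 values fell within 0.2 of a whole number and none passed a fixed upper limit. Mcm3 and Mcm4 met only this minimum of 8.

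The 36 genes and the other lists were chosen with earlier results of these data known. All 36 are named, with up to 5 tested genes by smallest p from each list of other genes. The alternatives tried were pseudocounts of 0.1 or 1, filters at 0.1 or 2 FPKM or none, median-of-ratios scaling, quantile normalization, limma without trend and robust variance, the replicate number as a block, a clock component as covariate, leaving out CMC library 2 with DEHP library 5, and leaving out each library. Their effect on the counts and named genes of the other lists was added after seeing the data. No pair of libraries had more than 0.943% identical values among tested genes. Python 3.11.15, NumPy 2.4.6, SciPy 1.17.1, pandas 2.3.3 and Matplotlib 3.10.9 were used.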

Additional observations from a re-analysis of the deposited data

Results flagged for a closer look

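In 4 of 72 gene and group combinations of 5 libraries, 1 library stood apart from the other 4, its gap to the nearest of them being more than 0.71 of the whole range. Chance alone gives such a gap in about 1 in 20 groups. Birc5 had 0.81 FPKM in DEHP library 3, while the other DEHP libraries had 2.76 to 3.19 FPKM. Tk1 had 25.17 FPKM in CMC library 2, while the other CMC libraries had 14.11 to 15.74 FPKM. Mki67 had 0.51 FPKM in CMC library 4, where the others had 0.18 to 0.26 FPKM. Bub1 had 0.16 FPKM in CMC library 2, and 0 to 0.03 FPKM in the other CMC libraries. The causes were not tested.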

How the results depend on the processing

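Of 592 values of single genes under an alternative, 550 kept their direction and their side of the threshold, 17 lost a call, 2 gained one, both for Tk1, and 23 changed sign. Rrm2 was called lower in all 21 alternatives, and Mcm6 and Cdc45 lost their calls with the clock component as covariate only, among the alternatives that tested them. Gins2 was called in 5 of its 20 alternatives, with adjusted p from 0.0147 to 0.141. The count of 3 genes called higher became 1 with the filter at 2 FPKM, where 12 of the genes were tested and neither Cdc45 nor Gins2 was. It became 0 with the clock component and lay between 2 and 3 when each library was left out. The genes behind an equal count could differ: without CMC library 2 the 3 were Mcm6, Cdc45 and Tk1. The 7 other replication genes became 4 with the clock component. Over all tested genes, the counts of 1025 higher and 270 lower became 647 and 438 with median-of-ratios scaling, 611 and 546 with quantile normalization and 574 and 156 with the clock component. The share of higher calls was 79.2% as reported, 59.6% with median-of-ratios scaling and 52.8% with quantile normalization, and the causes were not tested. Leaving out each library gave 747 to 1011 higher and 202 to 263 lower.

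With the replicate block, 816 genes were higher and 229 lower, and the same 3 and 1 of the genes described were called. Same-numbered libraries deviated together with correlations of -0.0722 to 0.0489, so the numbers were not taken as pairs. The changes of sign were of genes near 0 that were not called. Plk1 was -0.04 at a pseudocount of 0.1 and -0.02 with median-of-ratios scaling, quantile normalization and the clock component. Tyms was -0.05 with median-of-ratios scaling and with quantile normalization, and -0.0038 with the clock component. Pcna was -0.02 with quantile normalization, Cdk1 0.02 with the clock component, and Cdkn1b 0.05 without CMC library 2 and DEHP library 5. When each library was left out, Mcm2 ran from -0.04 to 0.18, Plk1 from -0.13 to 0.20, Tyms from -0.05 to 0.06, Mcm10 from -0.15 to 0.05, Cdkn1b from -0.05 to 0.07 and Myc from -0.09 to 0.25. Depth limits the low genes most, with 0 to 12 estimated fragments per library for Bub1b.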
